A study of Mus musculus with 12 samples.

Results

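Ribosome footprints were set against RNA in resting mouse embryonic fibroblasts, connective-tissue cells grown out of embryos, to describe how unevenly ribosomes were distributed over the messages of unwarmed cells. The cells were wild-type C57BL/6, grown to confluence, synchronised with Dex and kept at 35 °C throughout, without the step to 38.5 °C for 2 h that the labels call WTS and that other cells of the series received. The comparison used 6 of the 12 libraries of the series, 3 of RNA and 3 of footprints, paired by the replicate number in their labels. Every transcript ID with a listed length and at least 50 counts in each of the 6 libraries was a member, which gave 15891 members among the 46419 IDs with a listed length and the 63759 IDs in all. The series design text calls the experiments independent, and no label ties an RNA library to the culture of a footprint library. Spread between libraries may therefore be partly technical.

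Ribosome profiling sequences the short stretches of mRNA that a translating ribosome shields from nuclease, so the footprints of a message count the ribosomes on it. Divided by the RNA of the same message, they give the footprint to RNA ratio, often called translational efficiency, which is set by how often ribosomes start and how long each takes to move along the coding region. Messages are known to differ in this ratio. Short coding regions often carry ribosomes more densely than long ones, and mRNAs of ribosomal proteins, which are short and abundant, begin with a run of pyrimidines through which their translation is held down when growth signals are weak. The deposited tables name transcripts by ID only, and a search of 2 RefSeq-based mouse gene tables found 0 of these IDs. No gene, protein or sequence could therefore be attached to a member, and markers of fibroblasts or of other cell types could not be looked at.

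Each ratio below is log2 of footprint CPM (counts scaled to a common library total) over RNA CPM in 1 numbered pair, centred so that the median member of that pair lies at 0. A value of 1 therefore means that an ID had 2 times the ratio of the median member, and the centre says nothing about how many ribosomes a cell held. Levels are compared between IDs as CPM per 100 units of listed length. Nothing in the files says what this length counts. It ran from 16 to 33458 with a median of 368 over all IDs that had one, and the lengths were spread evenly over remainders of 0, 1 and 2 after division by 3.

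Library totals were 9859237 to 11400423 counts in RNA and 8449802 to 23393113 in footprints, number 1 being the deepest footprint library. Members held 93.8 to 94.1% of RNA counts and 95.2 to 96.7% of footprint counts, with a median of 216 to 272 RNA counts and 163 to 317 footprint counts. Number 1 stood apart in both assays. The squared differences between RNA libraries 2 and 3 were 6.03 times those expected from counting alone, against 53.3 and 62.3 times when number 1 was compared with them, and the footprint libraries gave 1.45 times for numbers 2 and 3 against 89.7 and 103 times. Footprint libraries 2 and 3 were thus close to, though above, sampling noise, so results are given by number. Neighbouring IDs can be isoforms that share reads. Members fell into 9936 read-sharing groups, in which linked IDs had counts that differed by at most 25% in every library, and 6570 members were alone in theirs.

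The ratio differed widely between members. Averaged over the 3 numbers its SD over IDs was 0.90 on the log2 scale, and the 5th and 95th percentiles were -1.55 and 1.42, a 7.84-fold range. The lowest member lay at -4.19 and the highest at 3.92. Within 2-fold of the median lay 12044 members (75.8%), while 2030 lay at least 2-fold below it and 1817 at least 2-fold above it, and 311 and 211 lay at least 4-fold away. The distribution had nearly equal sides, with a skewness of -0.109. Its SD was 0.97, 0.87 and 0.94 in numbers 1, 2 and 3.

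**Figure D1:**
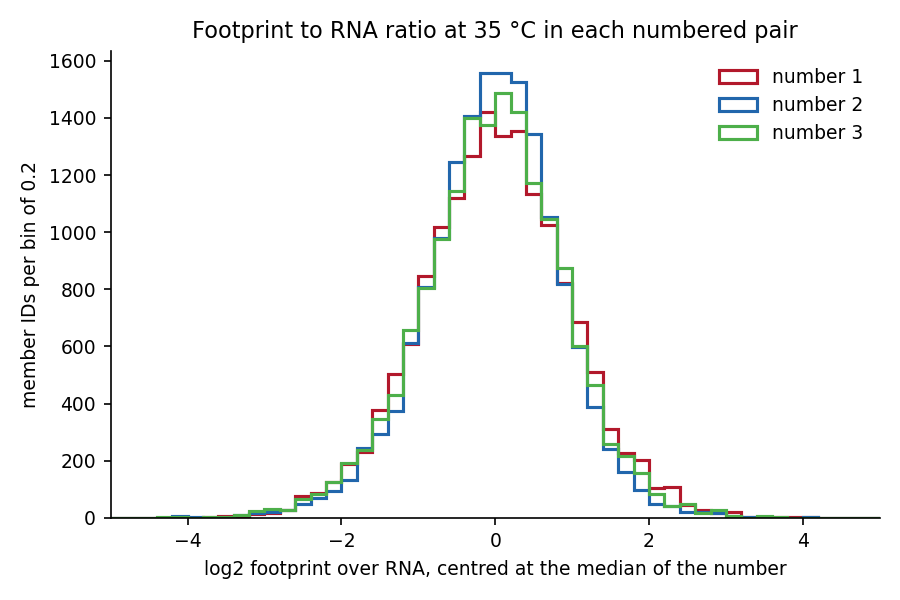
Number of member IDs (y axis, per bin of 0.2) at each centred log2 footprint to RNA ratio (x axis), 1 line per numbered pair of libraries. Within 0.5 of the median lay 41.0, 46.6 and 43.5% of members in numbers 1, 2 and 3, and number 1 has the widest spread with an SD of 0.97.

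RNA levels themselves ranged far more than the ratio. From the 5th to the 95th percentile, RNA per length of the members covered a 30.4-fold range and footprints per length a 64.3-fold range, both as means of 3 libraries. Within a number, RNA and footprints per length correlated across IDs at r = 0.880, 0.873 and 0.854 for numbers 1, 2 and 3 (both levels share the listed length, and IDs are not independent). On log2 scales the slope of footprints on RNA was 1.14 in number 1, 0.99 in number 2 and 0.96 in number 3. In RNA 898, 1106 and 1145 IDs held 50% of all counts in numbers 1, 2 and 3, and in footprints 227, 645 and 695 did. Footprints were thus gathered on fewer IDs than RNA in each number, and the RNA and footprint libraries did not overlap in this count.

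**Figure D2:**
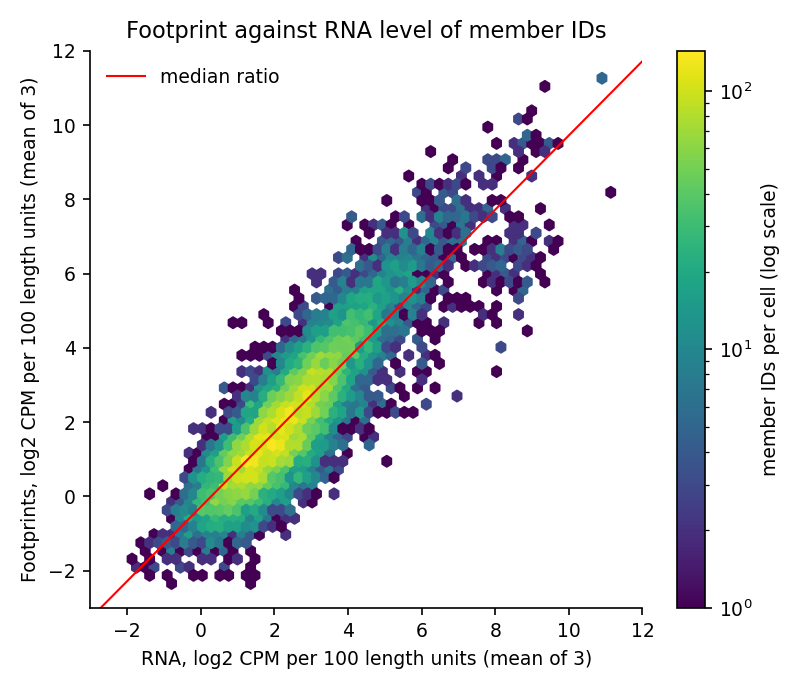
Footprint level (y axis) against RNA level (x axis) of each member, both as log2 CPM per 100 units of listed length averaged over 3 libraries, with colour for the number of IDs (log scale) and a red line at the median ratio. Most IDs follow the line, and a separate set at the highest RNA levels lies below it.

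The ends of the distribution held short and long IDs in unequal amounts. In the decile of members with the highest mean ratio (1589 IDs in 1077 read-sharing groups, all at 1.07 or more), the median listed length was 272, and 46.1% were no longer than 250. In the lowest decile (1589 IDs in 1028 groups, all at -1.14 or less) the median length was 718, and 32.9% were over 1000. The median length of the members between was 481. Median RNA per length was 8.87, 5.82 and 4.72 CPM in the high decile, the low decile and the rest, so both ends lay above the middle in RNA per length. Not divided by length, median RNA was 22.5, 41.4 and 21.4 CPM in the same order. The high decile was then close to the rest, and only the low decile lay clearly above it. An ID with a low ratio needs more RNA for its footprints to reach the limit for members, and how much this adds was not tested. Median footprints per length were 20.9, 1.56 and 3.71 CPM. The high decile took 17.4, 15.1 and 13.6% of RNA counts in numbers 1, 2 and 3 and 36.5, 33.3 and 32.9% of footprint counts. For the low decile these were 13.6, 18.3 and 19.1% of RNA and 3.14, 4.07 and 4.16% of footprints.

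Single IDs show how far the ratio reached. They were taken by rule as the first pair in each direction, by mean ratio, and 1 per read-sharing group. Only members called by the test below, on 1 side of the median in all numbers and without overlap of assays in CPM were eligible. Their calls and lack of overlap were thus set by the choice and are no separate evidence.

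The ID uc008fpw.2, of listed length 175, had 225, 499 and 646 CPM in RNA libraries 1, 2 and 3 and 14.2, 20.4 and 21.9 CPM in the footprint libraries. Every footprint value lay far below every RNA value. Its ratio was -4.19 ± 0.70 (SD, n = 3), which is 18.2-fold below the median member, and the edgeR log2 difference was -4.10 ± 0.26 (SE; edgeR adjusted p = 2.90e-12). The ID uc007epx.2, of length 123, had 419, 674 and 584 CPM in RNA and 29.4, 23.1 and 24.7 CPM in footprints, with a ratio of -4.12 ± 0.77 (SD, n = 3) and an edgeR log2 difference of -4.02 ± 0.27 (SE; edgeR adjusted p = 2.80e-11). Per length it ranked at place 49 of all members in RNA and at place 1912 in footprints. Both of these IDs were alone in their read-sharing groups, and number 1 gave the ratio nearest to 0 in each. Their p values above come from edgeR with the numbers paired. Unpaired, edgeR gave much weaker adjusted p values of 3.65e-04 for uc008fpw.2 and 3.08e-04 for uc007epx.2.

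At the other end, uc009jxp.1, of length 508, had only 12.6, 8.40 and 8.51 CPM in RNA and 83.9, 136 and 145 CPM in footprints. Its ratio was 3.92 ± 0.52 (SD, n = 3), 15.1-fold above the median, with an edgeR log2 difference of 3.99 ± 0.19 (SE; edgeR adjusted p = 1.85e-15). By RNA per length it was at place 13812 and by footprints at place 1683. The ID uc012fxo.1, of length 182 and in a read-sharing group of 5 members, had 45.9, 23.4 and 16.7 CPM in RNA and 607, 164 and 166 CPM in footprints. Library 1 was the highest in both assays, and its footprints were well above those of the other libraries. The ratio of this ID was 3.59 ± 0.67 (SD, n = 3) and its edgeR log2 difference 3.68 ± 0.25 (SE; edgeR adjusted p = 4.12e-12). Here too the numbers were paired. Unpaired, the edgeR adjusted p values were 1.80e-04 for uc009jxp.1 and 0.0082 for uc012fxo.1.

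With the numbers paired and TMM scaling, more members than not were called as different between footprints and RNA, and without the pairing fewer were. The edgeR quasi-likelihood test with the replicate number as a block called 10798 of the 15891 members (68.0%) at a Benjamini-Hochberg adjusted p under 0.05, where 64.2% of all 27179 IDs tested were called. Without the replicate block edgeR called 7487 members (47.1%). With the block, footprints were higher for 5914 members (37.2%, against 31.6% of all tested IDs) and lower for 4884 (30.7%, against 32.6%). The members' shares were thus near those of all tested IDs, with somewhat more on the higher side. Called members differed by a median of 0.82 on the log2 scale and the smallest called difference was 0.29, while the median SE was 0.15. Against a 2-fold difference 2193 members were called, 1162 higher and 1031 lower, and against a 1.5-fold difference 5269.

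Which IDs count as higher or lower rests on the scaling, since both assays are relative. With TMM scaling the median member lay at 0.09 and 54.8% of its calls were higher, and with scaling to total counts the median lay at -0.30, 30.5% of calls were higher (2924) and 6677 were lower. Differences between IDs do not depend on that choice.

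Ratios fell steadily with listed length. Median ratios were 0.75 ± 0.08 in IDs of length up to 100 (338 IDs), 0.40 ± 0.10 above that up to 250 (2821) and 0.16 ± 0.02 above 250 up to 500 (5252; SD over the 3 numbers here and below). They were -0.16 ± 0.03 above 500 up to 1000 (5155 IDs), -0.50 ± 0.09 above 1000 up to 2000 (1937), -0.71 ± 0.10 above 2000 but under 3000 (303) and -0.84 ± 0.13 at 3000 or more (85). The order of the 7 classes was the same in each number, and neighbouring classes did not overlap over numbers except for the last pair, above 2000 and at 3000 or more. From the shortest to the longest class the medians fell by 1.83, 1.55 and 1.40 in numbers 1, 2 and 3, or 3.02-fold on average. The limit for members bears on this size, since 16.4% of IDs up to 100 long were members against 64.9% above 2000 but under 3000. With the limit of 50 counts on the RNA libraries only, the span was smaller and the order of mean medians was kept. The shortest class then lay at 0.69 ± 0.15 and the longest at -0.71 ± 0.18 (SD, n = 3 numbers).

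**Figure D3:**
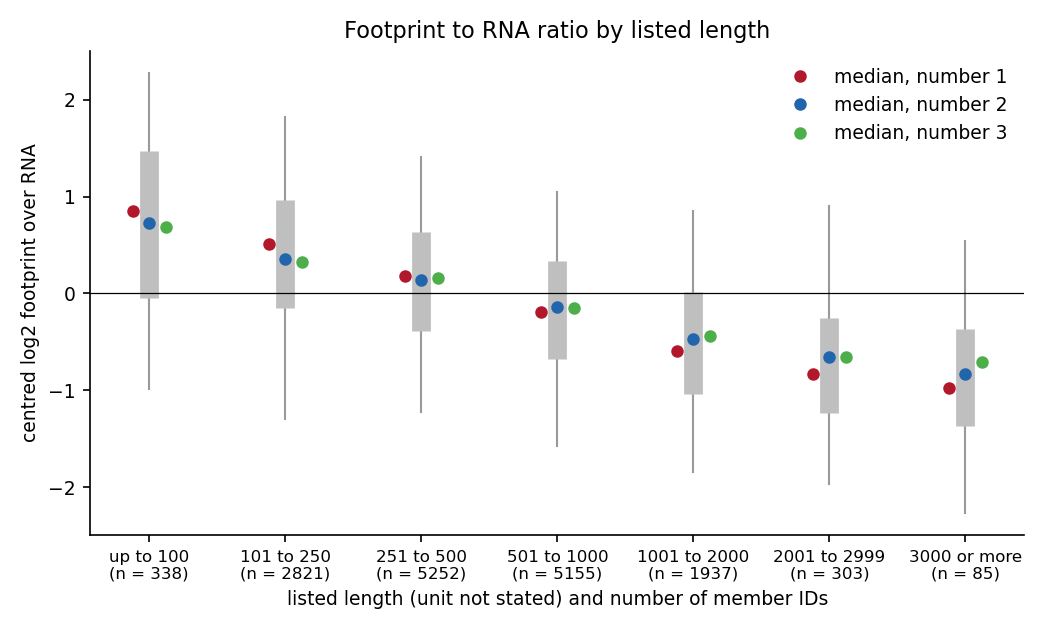
Centred log2 footprint to RNA ratio (y axis) in 7 classes of listed length (x axis). Coloured points are the medians of the 3 numbered pairs, thick grey bars the 25th to 75th and thin lines the 5th to 95th percentile of the mean ratio over IDs. Medians run from 0.75 in the shortest class to -0.84 in the longest, with wide overlap between single IDs.

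Per doubling of length the ratio changed by -0.354, -0.258 and -0.256 in numbers 1, 2 and 3. Across IDs the Spearman correlation of ratio and length was -0.395, -0.334 and -0.301, and the Pearson correlation with log2 length was -0.392, -0.318 and -0.292, over 15891 IDs that share libraries. Length classes held 14.8, 9.86 and 8.45% of the variance of the ratio, so most of it lay between IDs of like length, and the SD was still 0.90, 0.83 and 0.90 after class means were removed. Single IDs crossed the trend in both directions: of the IDs up to 100 long 17 lay at least 2-fold below the median and 133 at least 2-fold above, and of those at 3000 or more 38 lay below and 1 above. Calls by class come from the same counts as these ratios and are no separate evidence on length. Footprints were higher for 65.7% and lower for 10.9% of the shortest class, higher for 28.2% and lower for 36.8% above 500 up to 1000, and higher for 7.06% and lower for 61.2% at 3000 or more, beside 31.6% and 32.6% of all tested IDs.

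RNA per length also fell with length (Spearman correlation -0.515, -0.506 and -0.505), with medians of 18.3 CPM in the shortest class and 2.58 CPM in the longest. Within deciles of RNA per length the slope of the ratio on length was -0.357, -0.335 and -0.326 per doubling in numbers 1, 2 and 3. That was as in all members for number 1 and steeper than over all members for numbers 2 and 3. With the limit of 50 counts on the RNA libraries only, the mean slope within deciles was -0.217, shallower than the -0.255 over all 18830 IDs. The steeper slope was thus not seen without the requirement on footprints. Above 250 up to 500 the median ratios were 0.23 ± 0.07, 0.03 ± 0.01 and 0.24 ± 0.13 in the lowest, middle and highest RNA tertile, and above 1000 up to 2000 they were -0.46 ± 0.13, -0.65 ± 0.03 and -0.38 ± 0.10 (SD, n = 3 numbers). The longer class lay below the shorter one in every RNA tertile and every number.

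Shares of all counts did not follow these medians throughout. IDs up to 100 long held 1.55 ± 0.25% of RNA counts and 2.12 ± 0.31% of footprint counts (SD, n = 3; exact permutation p = 0.1, adjusted 0.233 over 7 classes). IDs above 2000 but under 3000 held 7.16 ± 0.36% of RNA counts and a larger 10.4 ± 1.59% of footprint counts (SD, n = 3; exact permutation p = 0.1, adjusted 0.233), although their median ratio was -0.71. In both classes the RNA and footprint libraries did not overlap, and 0.1 is the smallest two-sided p that 3 against 3 libraries allow. A single read-sharing group of 7 IDs, 2167 to 2468 long and with ratios of 1.22 to 1.26 was in this class. It held 4.40, 5.10 and 4.56% of all RNA counts and 7.48, 10.1 and 9.47% of all footprint counts in numbers 1, 2 and 3. The rest of its class held 2.50, 2.46 and 2.44% of RNA and 1.10, 1.51 and 1.47% of footprints. Where IDs of a group share reads, the same reads may be counted in several of them. The share of this group, and of its class, may therefore be too high in both assays. Shares above 500 up to 1000 were 34.1 ± 1.61% in RNA and 32.0 ± 1.15% in footprints (SD, n = 3; exact permutation p = 0.2).

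Dependence on RNA level was weaker and differed between numbers. To keep RNA counting error out of both sides, RNA per length was taken from the other 2 numbers. The slope per doubling of RNA per length was 0.112 in number 1, 0.000 in number 2 and 0.007 in number 3, and Spearman correlations were 0.219, 0.060 and 0.057. Deciles of members by RNA per length gave median ratios of -0.02 ± 0.11 in the lowest, -0.17 ± 0.05 in decile 3, -0.09 ± 0.02 in decile 6, 0.27 ± 0.11 in decile 9 and 0.40 ± 0.19 in the highest (SD, n = 3 numbers). The rise was confined to the upper 3 deciles in numbers 2 and 3, where the lowest decile lay slightly above the middle ones, while in number 1 the medians ran from -0.14 and -0.23 in deciles 1 and 3 to 0.63 in the highest. The direction rests on how length is treated: within length classes the slopes were -0.00148, -0.107 and -0.0973 per doubling of RNA per length, and with RNA not divided by length they were -0.065, -0.155 and -0.147. Without number 1 the mean slope per length was -0.014.

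**Figure D4:**
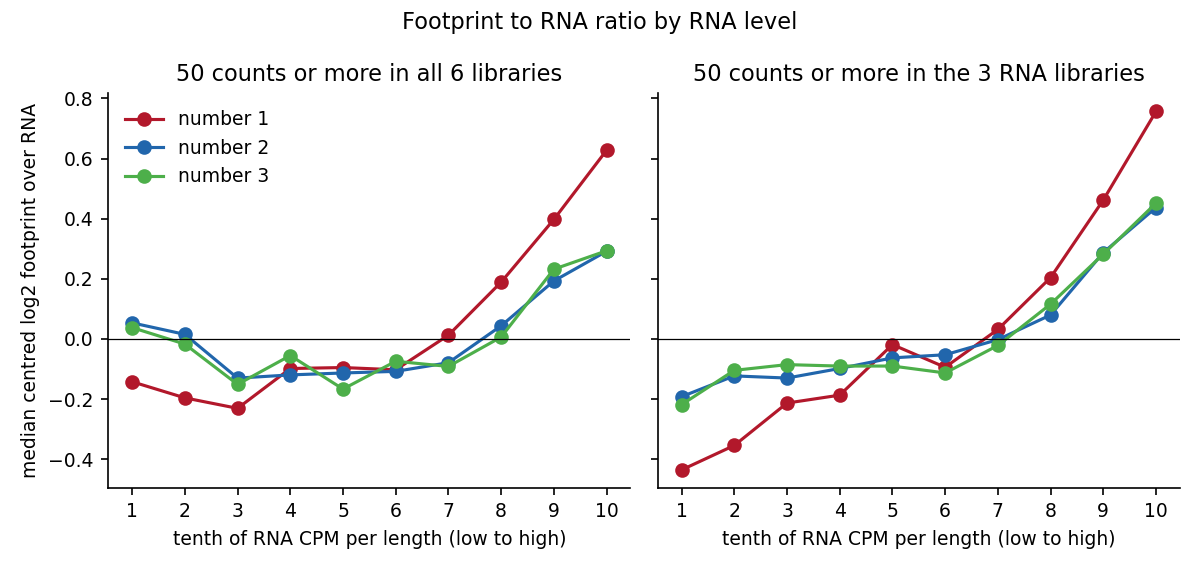
Median centred log2 footprint to RNA ratio (y axis) in deciles of RNA CPM per length taken from the other 2 numbers (x axis, low to high), 1 line per number. Left, members; right, IDs with at least 50 counts in each RNA library whatever their footprints. The highest decile lies at 0.63, 0.29 and 0.29 on the left and at 0.76, 0.44 and 0.45 on the right.

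The rule of 50 counts in every library bears on this shape, since an ID with little RNA is a member only if its footprints also reach 50. Among the 18830 IDs with at least 50 counts in each RNA library, whatever their footprints, the lowest decile lay at -0.28 ± 0.13 and the highest at 0.55 ± 0.18 (SD, n = 3 numbers), and the mean slope was 0.111. The spread of the ratio within a decile also grew with RNA, from an SD over IDs of 0.73 ± 0.04 in the lowest to 1.23 ± 0.06 in the highest among members, and from 0.92 ± 0.05 to 1.24 ± 0.03 without the requirement on footprints.

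The most abundant RNAs went against this rise. This set was looked at after the plot of levels had shown it. Of the members, the 1% with most RNA per length (158 IDs in each number) had median ratios of -0.80, -1.82 and -1.63 in numbers 1, 2 and 3, whereas the IDs between the top 1 and 2% lay at 0.83, 0.19 and 0.18 and those between 2 and 3% at 0.88, 0.41 and 0.38. In the top 1% the share of IDs at least 2-fold below the median was 42.4, 62.7 and 60.8%. Of the 135 IDs (94 read-sharing groups) that were in the top 1% in every number, 90 were called lower and 29 higher by edgeR, against 32.6% and 31.6% of all tested IDs. These calls come from the same counts as the plot and the ratios, and are no separate evidence.

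The medians of these IDs differed by length. The 91 of them with a length up to 250 (69 groups) had median ratios of -1.09, -2.17 and -2.05, a mean of -1.77 ± 0.59 (SD, n = 3), while the 44 longer ones (25 groups) lay at 0.43, 0.23 and 0.27, a mean of 0.31 ± 0.11. Of the 91 short IDs 74 were at least 2-fold below the median member and 7 at least 2-fold above. Low ratios were not confined to them: of the 44 longer IDs 13 were at least 2-fold below, the lowest at -3.31, and 13 at least 2-fold above. The 3033 members with a length up to 250 that were in the top 1% of no number lay at 0.46 ± 0.09. Among short IDs, those in the top 1% in every number thus had 0.293 times and those in it in no number 1.37 times the ratio of the median member, and short IDs in the top 1% of only some numbers are in neither set. The ID uc008fpw.2 is in neither, and uc007epx.2 is the lowest of the 91. Without number 2 or number 3, when 1 of the 2 RNA levels that rank the IDs comes from number 1, the median of the top 1% was -0.75 or -0.76, and without number 1 it was -1.87, around a value of -1.42 with all.

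The ratio of an ID was largely repeated from number to number. Across members it correlated at r = 0.897 between numbers 1 and 2, 0.893 between 1 and 3 and 0.950 between 2 and 3. The median SD of an ID over the 3 numbers was 0.21 on the log2 scale, against the SD of 0.90 between IDs, and variance over numbers came to 9.09% of the variance of a number's ratios. On the same side of the median in all numbers were 12604 members (79.3%). The highest deciles of the 3 numbers shared 1014 of 1589 IDs (63.8%) and the lowest deciles 1015 (63.9%), and 0 IDs were in the highest decile of number 1 and the lowest of another number or the reverse.

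**Figure D5:**
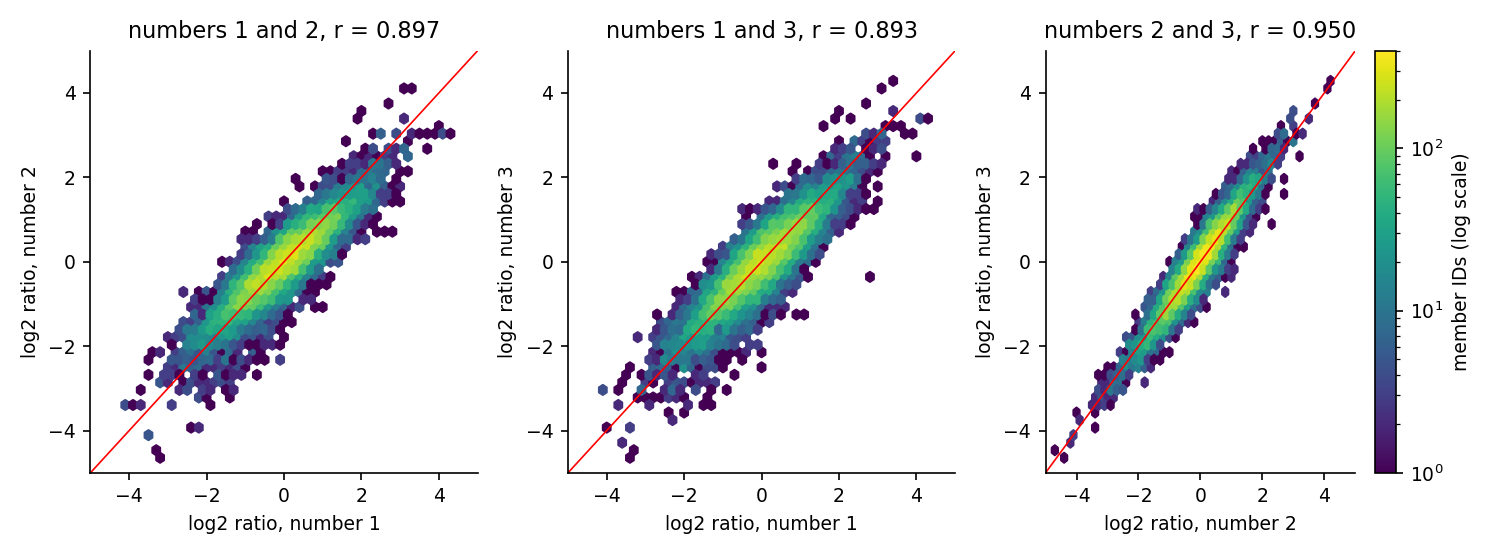
Centred log2 footprint to RNA ratio of each member in 1 numbered pair (x axis) against another (y axis), with colour for the number of IDs (log scale) and a red line of equality. Numbers 2 and 3 lie closest to the line (r = 0.950), and number 1 scatters more against both (r = 0.897 and 0.893).

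Ratios of numbers 2 and 3 differed by 0.296 (SD over IDs), of which counting error, taken as Poisson, would give 0.218. Between number 1 and the others the SD was 0.430 and 0.443, with 0.213 and 0.207 from counting. Differences of 2-fold or more were found for 33 members between numbers 2 and 3 and for 407 and 439 between number 1 and the others. A difference of 2-fold was thus above the SD of an ID's own ratio between numbers, and a difference of 0.2 or less was within it. A difference between a pair of IDs carries the spread of both, which was not measured.

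Number 1 deviated in RNA and footprints together. Its deviation from the mean of numbers 2 and 3 had an SD of 0.547 in RNA and 0.605 in footprints, and the deviations correlated at r = 0.751 across members, so that the ratio deviated less (SD 0.411) than either level. Between numbers 2 and 3 the RNA difference (SD 0.246) and the footprint difference (SD 0.172) correlated at only 0.033. The ratio of number 1 relative to the others fell with length (Spearman correlation -0.257), as its RNA level rose with length (0.171) and its footprint level fell slightly (-0.055). This is the steeper length slope of number 1 given above. Whether depth, library preparation or the culture of number 1 plays a part was not tested.

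IDs around the limit of 50 counts behaved alike. With a lowest count of 50 to 59, 1429 IDs had a median ratio of -0.18, and with a lowest count of 40 to 49, 1535 IDs had -0.15. The limit removed IDs from both ends: 2939 IDs had 50 counts in every RNA library but not in every footprint library, with a median ratio of -1.08, and 1159 had them in every footprint library but not in every RNA library, with a median of 1.05. The sides of these 2 medians follow from the limit itself. With the limit placed on RNA alone the SD was 0.98, against 0.90 among members. IDs with fewer footprint counts, and so more counting error, enter there. The spread among all expressed IDs was not measured.

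In the cells moved to 38.5 °C, the same members gave ratios with an SD of 0.91 and a range from -1.55 to 1.44 between the 5th and 95th percentiles. Their length medians were 0.67 ± 0.03 in the shortest and -0.94 ± 0.17 in the longest class (SD, n = 3 numbers), beside 0.75 ± 0.08 and -0.84 ± 0.13 at 35 °C. The difference between the temperatures was not tested here.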

How the data were processed

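RNA-seq and ribosome profiling libraries of cells kept at 35 °C were used, 3 of each. Per the labels' protocols, RNA was converted to libraries with a kit that keeps the strand, and lysates for footprints contained cycloheximide, which holds ribosomes on mRNA. Linker ligation, removal of rRNA, reverse transcription, circularisation and amplification followed. CASAVA 1.8, STAR 2.7.0 and mm10 are named in the submitters' processing notes. Counter, annotation and treatment of isoforms are not given in the sources used here. As raw counts per transcript ID the authors deposited integers, with a length of unstated unit in another column. The 17340 IDs without a length held 0 counts.

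Ratios, length classes, deciles and correlations were computed in Python 3.11.15 with numpy 2.4.6, pandas 2.3.3 and scipy 1.17.1. The test was edgeR 4.0.16 in R 4.3.3 (TMM, filterByExpr, robust quasi-likelihood, replicate number as a block) over 27179 IDs. DESeq2 1.42.0 and limma 3.58.1 were alternatives. The block follows the pairing that defines the comparison. Deviations of RNA and footprints from their group means correlated at 0.751, 0.540 and 0.618 for same numbers, and at 0.571 and 0.571 between numbers 2 and 3 crossed, so the pairing separates number 1 from the others and not 2 from 3. The scripts were tested on simulated counts. Read-sharing groups joined IDs within 30 rows, with a mean of at least 10 counts. Intervals of counts cover counting error only.

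The members, classes and tests were chosen with earlier results of these data known. Named IDs were to be the first 10 per direction had names been found, otherwise 2. Gene lists and markers could not be evaluated.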

Additional observations from a re-analysis of the deposited data

How the results depend on the processing

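The fall of the ratio with length kept its direction and moved by less than the spread between numbers under all 10 alternatives run. The SD of the ratio did so under 9 and became 0.953 with at least 10 counts and 0.983 with the limit on RNA only. The slope on RNA per length, 0.0399 on average, became 0.111 with the limit on RNA only, -0.122 without division by length, and between -0.0141 (without number 1) and 0.0712 without 1 number. The mean correlation between numbers, 0.913, became 0.707 and 0.703 when footprints were set against the RNA of another number. Member calls, 10798 with the replicate block, were 7487 without it, and became 5269 against a 1.5-fold and 2193 against a 2-fold difference and 6675 with 1 ID per read-sharing group, where fewer IDs were tested. They were 8979 to 11115 without 1 number, 9235 with DESeq2 and 10832 with limma-voom. Among calls shared with the reported fit, 0 changed sign under any of these alternatives, total-count scaling included. With that scaling the median member moved from 0.09 to -0.30. The smallest called difference in the reported fit was 0.29, so a shared call could hardly change sign. Of the 9601 member calls with that scaling, 7806 were shared. Footprint share minus RNA share, above 100 up to 250 long, was -0.642 points and became 0.349 without the 10 most abundant IDs of each library, and above 2000 but under 3000 it went from 3.22 to 0.00941 points. The top 1% by RNA per length, at -1.42, lay at -1.87 to -0.752 without 1 number. The 4 IDs described singly kept direction and call under all 59 values run. They were picked as called and extreme in these same counts, so this is no separate support for them. The cause of these shifts was not tested. Numbers 2 and 3 averaged and counted once, the top 1% and its alternatives, and the deciles and length classes with the limit on RNA only were added after seeing the data. Depth limits the ratio: counting alone would give an SD of 0.207 to 0.218 on the log2 scale for the difference of an ID's ratio between a pair of numbers.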

Other observations

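Outside the members, 4 IDs had at least 50 counts in every footprint library and 0 in every RNA library, with 59 to 530 footprint counts. A count of 0 allows up to 0.304, 0.271 and 0.263 CPM in RNA libraries 1, 2 and 3, for counting error only. In the other direction, 0 of the 18830 IDs with at least 50 counts in every RNA library were at 0 in all footprint libraries. The share of IDs that became members rose with listed length, from 16.4% of 2063 IDs up to 100 long to 64.9% of 467 above 2000 but under 3000, and was 50.6% of 168 at 3000 or more.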
